A study of Mus musculus with 8 samples.

Results

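Pard3 encodes the partitioning defective 3 protein, a scaffold of the cell polarity complex, and RNA from its locus was followed here through 833 tags crosslinked to Ptbp2. The tags were taken by position alone: their midpoints lay on the plus strand of chromosome 8 between 129587000 and 130137000 in the mouse build mm9, an interval of 550 kb. They were 0.0269% of the 3098854 tags of the series. The 99 minus strand tags of the same interval and the tags in 500 kb on either side served as the background. The 8 libraries, 4 of brain 2 and 4 of brain 1, were made from cortex collected on embryonic day 18.5 from mice of the CD1 strain. The titles mark them all as wild type, the labels name no treatment, and each library holds RNA crosslinked to Ptbp2. No library of another antibody, another genotype or input RNA was analysed here, so a tag count combines how often Ptbp2 was bound with how much RNA there was to bind. In a bulk tissue such as cortex, fewer cells of a type and less RNA per cell cannot be told apart.

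Pard3 carries PDZ domains and, with Pard6 and atypical protein kinase C, marks one end of a polarised cell. In the developing cortex it is known from the apical junctions of radial glial progenitors and from the growing axon of young neurons. Ptbp2 is the polypyrimidine tract binding protein of neurons and their progenitors. It binds pyrimidine-rich stretches of pre-mRNA, many of them intronic, and is best known for keeping exons of the adult brain out of embryonic transcripts. HITS-CLIP maps such contacts: ultraviolet light joins the protein to the RNA it touches, an antibody recovers the complex, and the bound fragment is sequenced as a short tag. The series asked where Ptbp2 contacts RNA in the embryonic brain, and the comparisons its design allows are between both brains and between the gene and its surroundings.

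The libraries held 228424 to 340852 tags in brain 2 and 458293 to 545387 in brain 1. Tags were 27 to 30 nt long. Libraries 1 and 2 of a brain carry the letter a in their titles and libraries 3 and 4 the letter b, and the labels do not say what the letters mean. Libraries 1 and 2 of brain 1 were the closest pair within a brain, at a chi-square per degree of freedom of 1.04 over 8360 intervals of the Pard3 width. The other pairs of one brain and letter were at 1.11 (letter b, brain 1), 1.06 (letter a, brain 2) and 1.33 (letter b, brain 2). The widest pair within a brain, libraries 2 and 4 of brain 2, reached 1.75. Pairs across brains ran from 1.22 to 2.33, so the ranges within and across brains overlapped. All 4 libraries of a brain share 1 animal, so every p-value below measures the spread between libraries, which may be technical. The exact tests of 4 against 4 libraries take no account of the letters. Nothing here carries exon or intron annotation, because no annotation of mm9 was used; the tissue label was not checked against marker genes for the same reason. In the reference table of a later build, GRCm38.p6, used for names only, Pard3 has the gene ID 93742 and lies on the plus strand between the nearest protein-coding genes Rbm34 and Nrp1. That table also places 3 long non-coding RNA genes within or over Pard3: Gm51558 on the plus strand, and Gm9909 and LOC115486907 on the minus strand. Tags from Gm51558 cannot be told apart from those of Pard3.

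Ptbp2 tags covered Pard3 along nearly its whole length and lay on the strand of the gene. Of the 932 tags in the interval, 89.4% were on the plus strand (Clopper-Pearson 95% interval 87.2 to 91.3%). The plus strand share was 88.2, 81.6, 88.5 and 87.5% in libraries 1 to 4 of brain 2, and 89.9, 93.6, 88.1 and 92.0% in libraries 1 to 4 of brain 1. It was above 80% in all 8 libraries, and library 2 of brain 2 was the lowest. Means were 86.5 ± 3.27% in brain 2 and 90.9 ± 2.41% in brain 1 (SD, n = 4 each), groups that overlapped (two-sided exact permutation test p = 0.0857). Intervals throughout cover counting error only.

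Tags were far denser within Pard3 than on the same strand beside it. The interval held 151 plus strand tags per 100 kb, against 18.4 in the flanks, a ratio of 8.23 (exact 95% interval 7.01 to 9.71). Library by library the ratio was 9.09, 4.61, 8.13 and 9.90 in brain 2 and 11.2, 9.48, 7.66 and 7.39 in brain 1. Library 2 of brain 2 was again the lowest, and the brains overlapped (means 7.93 ± 2.33 and 8.92 ± 1.76 for brain 2 and brain 1, SD, n = 4 each, exact permutation p = 0.600). The flanks set the size of this ratio, which was 6.18 with flanks of 100 kb. The minus strand ran the other way: the interval held 18.0 minus strand tags per 100 kb, against 39.7 in the flanks, a ratio of 0.453 (0.360 to 0.566). The minus strand flanks were not an empty background. Their tags were bunched, with 27 in the 10 kb window at -100 kb and 23 in that at 580 kb from the start of the interval.

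The step in tags at the start of the interval was larger than that at its end. At the start 96 plus strand tags fell in the first 5 windows of 10 kb, against 8 in the 5 windows before it. At the far end 33 tags fell in the last 5 windows of the interval and 25 in the 5 windows after it. Of these 25, the windows at 550, 560, 570 and 580 kb held 6, 2, 1 and 1, and that at 590 kb held 15. How clear an edge the counts mark there thus depends on the window at 590 kb. Of the 55 windows of the interval 51 held more plus than minus strand tags, against 22 of the 100 flank windows. Windows of Pard3 held between 1 and 60 plus strand tags with a median of 12, against a median of 1 and a highest value of 15 in the flanks, and 18 of the 55 were above that highest flank value. Tags of both brains were present in 50 of the 55 windows. The median distance between successive tags was 138 nt, and the longest stretch without a tag ran for 11.96 kb, from 512.8 to 524.8 kb after the start.

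**Figure D1:**
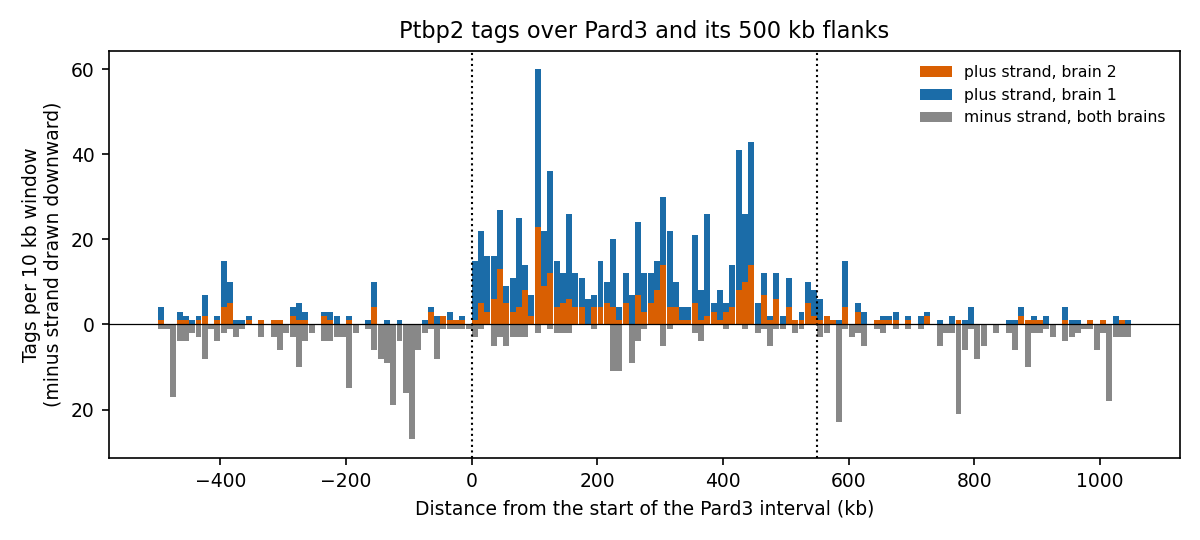
Tags per 10 kb window over Pard3 and its flanks of 500 kb, against distance from the start of the interval in kb; plus strand tags of brain 2 and brain 1 are stacked upward and minus strand tags of both brains are drawn downward. Dotted lines mark the interval, within which the windows hold 1 to 60 plus strand tags, against at most 15 in any flank window.

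Within Pard3 the tags were uneven, with 2 stretches that stood above the others. The 11 fullest of the 55 windows held 364 tags, or 43.7%. The fullest began 100 kb after the start and held 60 tags, 23 from brain 2 and 37 from brain 1, in 8 of 8 libraries. The next began at 440 kb with 43 tags (14 from brain 2 and 29 from brain 1), at 420 kb with 41 (8 and 33) and at 120 kb with 36 (12 and 24). The fewest were in the window at 510 kb, with 1 tag from brain 2 and 0 from brain 1, and in those at 470 and 490 kb, with 2 tags each. By segments of 50 kb, the stretch from 100 to 150 kb held 145 tags and that from 400 to 450 kb held 129, together 32.9% of the gene's tags in 2 of 11 segments. The other 9 segments held between 33 and 96 tags, and both segments past 450 kb were at 33.

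The brains overlapped in the share of tags that each of these stretches took. The segment from 100 to 150 kb took 19.2 ± 4.64% of Pard3 tags in brain 2 and 16.3 ± 1.14% in brain 1 (SD, n = 4 each, exact permutation p = 0.314). The segment from 400 to 450 kb took 15.03 ± 3.82% in brain 2 and 15.5 ± 2.97% in brain 1 (p = 0.886 in the same exact test). The first part of the gene up to its midpoint held 54.3 ± 9.65% of the tags in brain 2 and 56.5 ± 3.24% in brain 1 (exact permutation p = 0.800).

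Of the 11 segments 1 had groups that did not overlap. How often segments of 50 kb elsewhere in the genome separate in this way was not counted. The segment from 350 to 400 kb took 5.0, 2.82, 5.88 and 4.08% of the Pard3 tags in libraries 1 to 4 of brain 2, and 7.87, 12.3, 7.63 and 11.9% in libraries 1 to 4 of brain 1. Every brain 2 library was below every brain 1 library, on 12 tags in brain 2 and 56 in brain 1. The exact permutation p was 0.0286, the smallest that 4 against 4 libraries can give, and 0.314 after Benjamini-Hochberg adjustment over the 11 segments, so the difference did not pass. Much of it lay in the window at 370 kb, which held 1, 1, 0 and 0 tags in brain 2 and 5, 11, 2 and 6 in brain 1.

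**Figure D2:**
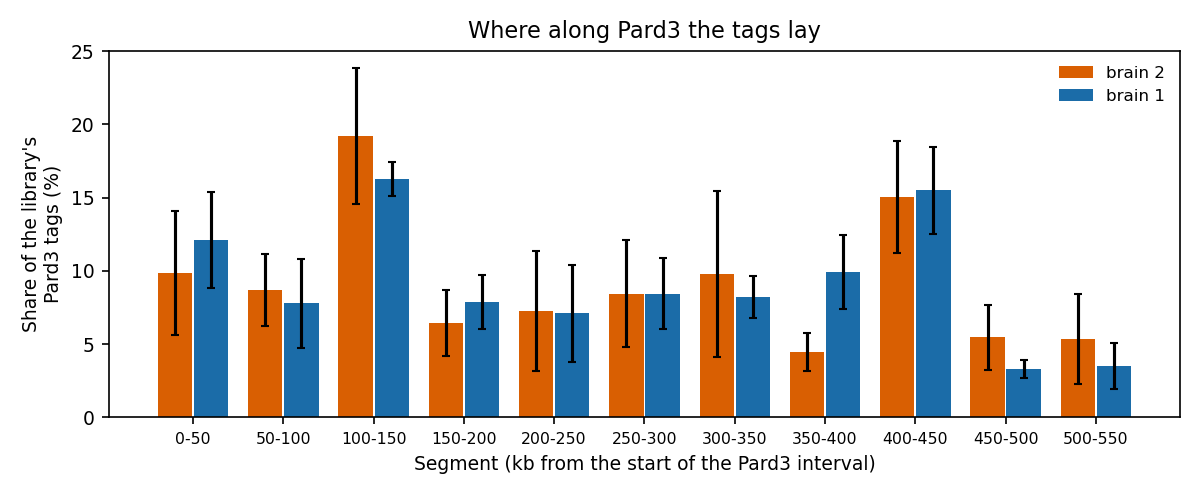
Share of each library's Pard3 tags (percent) in 11 segments of 50 kb, in order from the start of the interval; bars are means over the 4 libraries of brain 2 and of brain 1 and lines are SDs. The segments from 100 to 150 kb and from 400 to 450 kb are the fullest in both brains, and in the segment from 350 to 400 kb the mean was 4.45% in brain 2 and 9.93% in brain 1.

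The minus strand tags of the interval were few and bunched. They exceeded or equalled the plus strand tags in 4 of the 55 windows, and 7 windows held 5 or more of them. The windows at 220, 230 and 250 kb held 11, 11 and 9 minus strand tags, beside 20, 4 and 7 plus strand tags. The windows from 220 to 260 kb thus held 31 of the 99 minus strand tags. Whether they come from Gm9909 or LOC115486907 was not tested, since positions of the later build cannot be set against mm9.

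The level of Ptbp2 tags on Pard3 was lower in brain 2 than in brain 1 in every library. Pard3 had 60, 71, 85 and 49 tags in libraries 1 to 4 of brain 2, and 178, 146, 118 and 126 in libraries 1 to 4 of brain 1. Scaled to the library total as CPM, the count per 1000000 tags of the library, these were 224, 216, 249 and 215 CPM in brain 2, and 326, 319, 257 and 268 CPM in brain 1. The highest brain 2 library, library 3, lay just under the lowest of brain 1, also library 3. Their counting intervals overlapped widely (exact Poisson 95% interval 199 to 308 CPM in brain 2 library 3 and 212 to 307 in brain 1 library 3), as did those of every other pair of neighbours in the order of the 8 levels.

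Mean levels were 226 ± 16.2 CPM in brain 2 and 292 ± 35.1 CPM in brain 1 (SD, n = 4 each), a log2 difference of -0.37. The two-sided exact permutation p was 0.0286, the smallest the design allows, and 0.257 after adjustment over the 9 per-library measures of Pard3 compared between brains. Pooled over libraries the rate in brain 2 was 0.774 times that in brain 1 (95% interval 0.666 to 0.897). Leaving out the first and last 10 kb of the gene gave a log2 difference of -0.33 with an exact p of 0.0571: the first 10 kb held 1 tag in brain 2 and 14 in brain 1. Separation of this kind was seen elsewhere too: brain 2 lay below brain 1 without overlap in 2.53% of the 8944 intervals of the Pard3 width tested across the genome.

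The ratio between the brains was nearer 1 in libraries of letter b than in those of letter a. In libraries of letter a the mean was 220 CPM in brain 2 and 322 CPM in brain 1, a ratio of 0.682. In libraries of letter b it was 232 CPM in brain 2 and 262 CPM in brain 1, a ratio of 0.881. Both ratios were taken from the mean log2 CPM of each brain, not from the printed means. Because all 8 libraries separated by brain, the brains could not overlap within either letter, which held 2 libraries of each brain. The lack of overlap within a letter is thus no separate observation. With 2 against 2 libraries no exact test can go below 0.333, and whether the letters differ was not tested.

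The minus strand of the interval, counted in the same libraries, had the higher mean in brain 2, with overlap between the brains. It had 29.9, 48.6, 32.3 and 30.6 CPM in libraries 1 to 4 of brain 2, and 36.7, 21.8, 34.8 and 23.4 CPM in libraries 1 to 4 of brain 1. The highest value was that of library 2 of brain 2 (means 35.4 ± 8.88 CPM in brain 2 and 29.2 ± 7.64 CPM in brain 1, SD, n = 4 each, exact permutation p = 0.343). These levels rest on 7 to 20 tags per library.

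**Figure D3:**
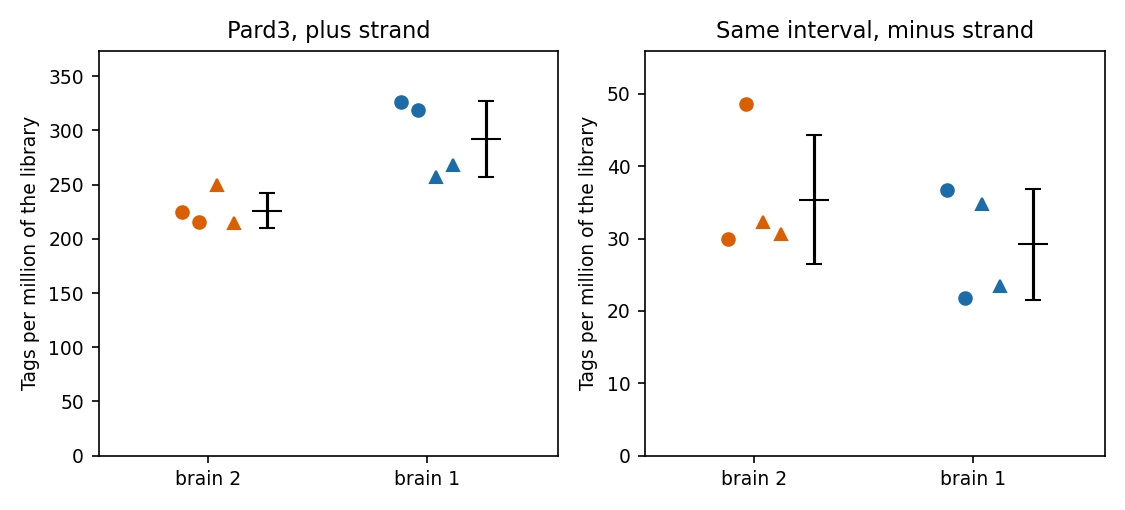
CPM, tags scaled to the library total, on Pard3 (left) and on the minus strand of the same interval (right, on another scale) for the 4 libraries of brain 2 and the 4 of brain 1; circles are libraries of letter a, triangles those of letter b, and the black line gives the mean and SD. On Pard3 the libraries lie between 215 and 249 in brain 2 and between 257 and 326 in brain 1, while on the minus strand they overlap.

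Set against the whole genome, the difference on Pard3 did not pass. In a limma voom fit over all 8944 intervals of the Pard3 width, with trimmed-mean scaling of the libraries, the log2 difference for Pard3 was -0.42 ± 0.14 (SE), with an unadjusted p of 0.00450 and a Benjamini-Hochberg adjusted p of 0.173. In that fit 30 intervals, 0.335%, had an adjusted p under 0.05, and 1042 had an unadjusted p under 0.05. Over the alternatives tried the adjusted p of Pard3 ran between 0.0759 and 0.567 while the difference stayed negative. Fits to smaller pieces of the gene also made 0 calls. In 10 kb windows with 15 or more tags, 22 of the 55 Pard3 windows could be tested, 5 higher and 17 lower in brain 2, and limma called 0 of them, against 0.0219% of all 50270 windows tested. The median log2 difference over all those windows was itself below 0, at -0.10. The share of them lower in brain 2 was not counted. The 22 windows are parts of the interval already found lower in brain 2, so their directions are no separate observation. An unadjusted p under 0.05 was reached by 2 of the 22, at 370 kb (log2 difference -2.02 ± 0.89 SE, adjusted p 0.706) and at 420 kb (-1.29 ± 0.60 SE, adjusted p 0.712). Over the genome 3459 of the 50270 windows reached it. The filter of 15 tags counts both brains together. These 2 windows held 2 and 8 tags in brain 2 and 24 and 33 in brain 1, so they passed it through brain 1 alone. With the stricter filter used for the genome as a whole, 0 of the 55 windows held enough tags to be tested.

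Ptbp2 tags on Pard3 were mostly scattered, and few formed tall sites. Tags that overlapped by 1 nt or more, whatever their library, were joined into a cluster, whose height is the number of tags over its fullest base. The gene held 522 clusters, of which 354 were single tags, and 168 reached a height of 2. A height of 3 was reached by 60 clusters, a height of 4 by 30, a height of 5 by 13 and a height of 10 by 2. The 2 tall clusters held 33 tags, or 3.96% of the gene's tags, against 15.7% of all tags on nuclear chromosomes in clusters of that height.

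This difference from the library as a whole was seen in every library. The share of Pard3 tags in clusters of height 10 or more was 8.33, 2.82, 4.71 and 10.2% in libraries 1 to 4 of brain 2 and 3.93, 3.42, 1.69 and 2.38% in libraries 1 to 4 of brain 1, against 15.1 to 18.7% of the tags on nuclear chromosomes in the same libraries. Pard3 lay below its library in 8 of 8 (mean 4.69 ± 3.02% against 15.95 ± 1.16%, SD, n = 8, exact paired permutation p = 0.0078, the smallest possible, and 0.0156 adjusted over 4 such comparisons). The clusters were called once on tags pooled over the libraries, so each share comes from the same clusters. The libraries are therefore not independent in this comparison, and a difference in the pooled tags favours the same direction in each. The 3 intervals nearest to Pard3 in level, described last, held 9.39 to 15.4% of their tags in such clusters, with no test made. Single tags were 41.3 ± 5.93% of Pard3 tags and 37.9 ± 2.95% of tags on nuclear chromosomes, higher for Pard3 in 6 of 8 libraries (exact paired permutation p = 0.0469, adjusted p 0.0625). The brains overlapped in the tall-cluster share (6.52 ± 3.36% in brain 2 and 2.86 ± 1.01% in brain 1, n = 4 each, exact permutation p = 0.0857).

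At low heights Pard3 lay above or near the genome as a whole, and at greater heights below it. Per 1000 tags Pard3 had 202 clusters of height 2 or more, against 160 over all nuclear chromosomes, and 72.0 of height 3 or more, against 73.4. At height 5 or more it had 15.6, against 27.4, and at height 10 or more 2.40, against 7.35. No test was made of these counts, which pool the libraries.

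The tallest cluster ran from 130027017 to 130027072 (chromosome 8, plus strand), 440 kb into the gene. It was 56 nt wide, 22 tags high, and held 23 tags. It had 3, 1, 3 and 4 tags in libraries 1 to 4 of brain 2, and 4, 5, 0 and 3 in libraries 1 to 4 of brain 1. Tags of 7 of 8 libraries met there, with 11 from brain 2 and 12 from brain 1. Relative to depth the rate in brain 2 was 1.52 times that in brain 1, with a counting interval from 0.608 to 3.76 that includes equality. The limma fit over 11307 clusters with 15 or more tags gave a log2 difference of 0.62 ± 0.65 (SE) and an adjusted p of 0.822, while 0.0531% of those clusters were called. Of the 23 tags 11 shared one start and end, and 15 were left when tags at one position were counted once per library.

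The second lay from 129889182 to 129889234, 302 kb into the gene, with a height of 10. Its 10 tags were 2, 1, 1 and 1 in libraries 1 to 4 of brain 2 and 3, 0, 2 and 0 in libraries 1 to 4 of brain 1, so all 4 libraries of brain 2 and 2 of brain 1 reached it. Of these tags 7 shared one position, and 7 tags were left when repeats within a library were counted once, which takes this cluster under a height of 10. Both tall clusters were isolated: they lay 137.8 kb apart, the tall cluster before them on the strand was 701 kb upstream and the next was 871 kb downstream.

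Among the lower clusters several lay close together. A group that began 429.95 kb into the gene held 4 clusters of height 4 or more within 628 nt, with 22 tags from 7 libraries, 9 of brain 2 and 13 of brain 1. Its tallest member, from 130016950 to 130017012, had a height of 8 and 4 tags of brain 2 and 5 of brain 1. Another cluster of height 8, from 129807103 to 129807134, held 2 tags of brain 2 and 6 of brain 1, of which 6 shared one position. Around 100 to 150 kb, the fullest stretch, the clusters reached no more than height 7, the tallest running from 129695675 to 129695719 with 4 tags of brain 2 and 3 of brain 1. Of the 30 clusters of height 4 or more, 17 fell in the segments from 100 to 150 kb and from 400 to 450 kb. In 3 instances such clusters followed each other within 200 nt, at gaps down to 7 nt, while the median gap was 7.02 kb.

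**Figure D4:**
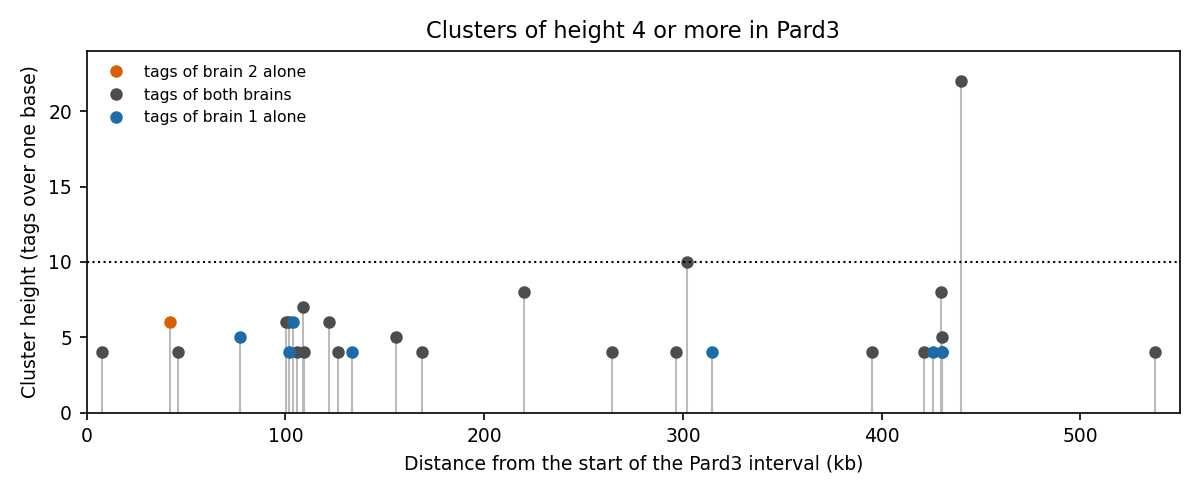
Height (tags over one base) of the 30 clusters of height 4 or more in Pard3 against distance from the start of the interval in kb; colours mark clusters with tags of brain 2 alone, of both brains and of brain 1 alone. The dotted line at 10 is passed or reached by 2 clusters, and the tallest, at 440 kb, has a height of 22.

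The share of clusters with tags of both brains was larger at greater heights. Both brains were present in 68 of 168 clusters of height 2 or more (40.5%, Clopper-Pearson 95% interval 33.0 to 48.3%), in 36 of 60 of height 3 or more (46.5 to 72.4%) and in 22 of 30 of height 4 or more (73.3%, 54.1 to 87.7%). A cluster with more tags has more chances to hold both brains, and pooling before clustering favours sharing. Single-brain clusters occurred also among the taller ones. A cluster of height 6 from 129629054 to 129629089 had 6 tags of brain 2, of which 5 came from library 3, and 0 of brain 1. A cluster of the same height from 129690734 to 129690763 had 0 tags of brain 2 and 6 of brain 1, from libraries 1 and 2.

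When clusters were built in each brain separately, the overlap was smaller. Brain 2 alone gave 43 clusters that reached height 2, and 12 of them (27.9%, 15.3 to 43.7%) overlapped one of brain 1, and of 105 in brain 1, 12 (11.4%, 6.05 to 19.1%) overlapped one of brain 2. At height 3 or more it was 4 of 13 in brain 2 and 4 of 34 in brain 1. Single-base sharing was rarer: of 215 distinct 5′ ends in brain 2 and 456 in brain 1, 27 were common to both, 12.6% of those of brain 2 and 5.92% of those of brain 1. These counts rest on 265 tags in brain 2 and 568 in brain 1, and whether depth sets the overlap was not tested.

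Tags on Pard3 were more often of the full 30 nt than those of the library as a whole. Tags of the full 30 nt made up 48.3, 53.5, 50.6 and 46.9% of Pard3 tags in libraries 1 to 4 of brain 2, and 57.3, 52.7, 52.5 and 46.8% in libraries 1 to 4 of brain 1, against 39.8 to 44.7% of all tags of these libraries. The share was higher on Pard3 in 8 of 8 libraries (51.1 ± 3.64% against 42.9 ± 1.78%, SD, n = 8, exact paired permutation p = 0.0078, adjusted p 0.0156). Tag length was not compared with other intervals, so whether this is particular to Pard3 was not tested. The brains overlapped, with 49.8 ± 2.88% in brain 2 and 52.4 ± 4.29% in brain 1 (n = 4 each, exact permutation p = 0.400). Tags repeated at one start and end within a library were 11.7 ± 5.78% of Pard3 tags and 11.7 ± 3.21% of all tags (exact paired permutation p = 0.969). Library 4 of brain 2 had the highest repeated share on Pard3, 24.5%, and also over all its tags, 18.6%.

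Among intervals of its width Pard3 was one of the fuller ones. Of 9388 such intervals with tags, 94.4% held fewer than Pard3 and 524 held more, and the median was 226 tags. The intervals of chromosome 8 were laid from the start of the Pard3 interval, and those of other chromosomes from their first base. Pard3 was thus framed by its own interval, while the others could cut across genes, so this is not a rank among genes. The 3 intervals whose levels over the 8 libraries were nearest to Pard3, by Euclidean distance of log2 CPM, lay on chromosome 7 (minus strand, 117150214 to 117700214, distance 0.300), chromosome 11 (plus strand, 77000141 to 77550141, distance 0.346) and chromosome 16 (minus strand, 89650164 to 90200164, distance 0.351). They held 876, 821 and 799 tags, with mean levels of 240, 242 and 228 CPM in brain 2 and 305, 279 and 277 CPM in brain 1. Chosen for their level, they differed from Pard3 in how the tags were gathered. Pard3 had 2 clusters of height 10 or more, against 8, 6 and 5 in those intervals, and 13 of height 5 or more, against 24, 26 and 20. Its tags in tall clusters were 3.96%, against 15.4, 10.96 and 9.39%, and its single tags 42.5%, against 33.7, 36.3 and 39.8%. These are single pooled values of 4 intervals, with no test.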

How the data were processed

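The deposited data were a list of mapped tags pooled over the series, with the position and strand of each tag; the first part of a tag's name gave its library, each of the 8 codes found there matched 1 title, and 0 tags were left over. Per the file's values the deposited score column held 0 throughout and was not used. Per the submitters' processing notes the authors used Bowtie (version not given) and the builds mm8 and mm9; tags of chromosome 1 ended at 197194446, and positions are given as mm9, counted from 1. The treatment of repeated reads and of reads that map to several places is not given in the sources used. Per the labels' protocols reads opened with 4 degenerate bases and a G.

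Tags were assigned by midpoint and counted from this list. Single values were compared by exact permutation. Intervals, 10 kb windows and clusters across the genome were fitted with limma 3.58.1 (voom, R 4.3.3), with trimmed-mean scaling (log ratios, cutting 30% by ratio and 5% by level at either end), for features with the CPM of 10 tags in a library of median depth in 4 libraries, or 15 tags in all where stated, and adjusted by Benjamini and Hochberg at 0.05. The fit was also run on simulated counts with known changes. These were drawn independently for each library, without shared animals or letters, so they do not test the fit under this design. Sites named are the 10 tallest clusters of height 10 or more (2 exist), calls, the fullest and emptiest windows and the 3 nearest intervals; clusters of lower height, the windows at 370 and 420 kb and the segment from 350 to 400 kb were named after their values were seen. The gene, intervals and lists were chosen with earlier results of these data known. Library numbers do not pair the samples: same-numbered libraries of both brains correlated between -0.0877 and 0.000283 in their deviations. Other polarity genes and cell type markers, which need an annotation of mm9, are not analysed here. Other values per library were scaled by the library total. Alternatives covered scaling, filters, repeated positions, flanks, cluster rules, libraries left out, number as a block and letters, of which the letter as a covariate or alone, the block with the lower filter and 5 and 25 kb windows with the lower filter were added after the data were seen.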

Additional observations from a re-analysis of the deposited data

Results flagged for a closer look

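Library 2 of brain 2 stood apart from the other 3 of its brain in 2 linked measures. Its minus strand level over the Pard3 interval was 48.6 CPM, against 29.9 to 32.3 in the others, on 16 minus strand tags. Its plus strand share was correspondingly low, at 81.6%, with a Clopper-Pearson interval from 71.9 to 89.1%. Library 4 of brain 2, the shallowest with 49 Pard3 tags, had 34.7% of them in the 11 fullest windows, against 43.3 to 45.1% in the other libraries of that brain. In each case the gap to the nearest library of the brain, taken over the range of the 4, passed Dixon's 95% critical value. Of 16 sets of 4 libraries examined 3 did so, and chance alone marks about 1 in 20.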

How the results depend on the processing

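The level of Pard3 stayed lower in brain 2 under every alternative tried. Its log2 difference was -0.42 with trimmed-mean scaling, -0.39 with repeated positions counted once and -0.36 without the 20 tallest clusters of the genome in the totals, each at an exact p of 0.0286. It was -0.33 without the first and last 10 kb (p 0.0571) and between -0.43 and -0.31 with 1 library left out, where 3 against 4 libraries cannot go below an exact p of 0.0571. With libraries of a letter summed it was -0.36, in letter a alone -0.55 and in letter b alone -0.18, each at 0.333, the smallest p of that design. The replicate block, with library numbers as pairs, gave -0.37 at an exact p of 0.125, the smallest it allows.

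In limma the difference of the Pard3 interval ran from -0.48 to -0.35 with 1 library left out (adjusted p 0.0872 to 0.489), was -0.42 with the replicate block (adjusted p 0.356) and -0.36 with total scaling (0.201), and did not pass in any fit. The number of intervals called genome-wide varied far more: 30 as reported, 79 with total scaling, 3 with the block or with letters summed, 6 with the block and the lower filter, 122 with repeats counted once, and 1 (without library 1 of brain 1) to 245 (without library 4 of brain 2) with 1 library left out. Calls among 10 kb windows numbered 47, against 4 to 51 in other fits of that width, and among clusters 6, against 0 to 15. Pard3 windows of 10 kb were tested only with the lower filter (22 windows) and with letters summed (3 windows). With windows of 25 kb, 2 of Pard3 were tested with the stricter filter and 21 with the lower. With windows of 5 kb, 15 were tested with the lower filter. Of the 21 windows of 25 kb, 2 had an unadjusted limma p under 0.05, as had 3943 of all 50960. A Pard3 cluster was tested only with the lower filter (1 cluster). None of these was called, and the other fits held 0 windows and 0 clusters of Pard3, so they could call none.

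Clusters of height 10 or more numbered 2, against 13 at a height of 5, 1 at a height of 20, 1 with an overlap of 10 nt and 1 with repeats counted once. The tall-cluster share was higher in brain 2 by 3.66 percentage points, by 2.43 to 4.89 with 1 library left out, and by 1.80 with repeats counted once. The plus strand share (88.5 to 90.2%), density ratio (7.68 to 8.88) and share in the fullest windows (43.4 to 44.8%) had these ranges with 1 library left out. With flanks of 100 kb the density ratio was 6.18. The cause of these shifts was not tested. Depth limits the fits along the gene: with the lower filter 22 of the 55 windows and 1 of the 2 tall clusters could be tested. With the stricter filter applied to single libraries it was 0 of either.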
